A study of Mus musculus with 8 samples.

Results

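The replication-dependent histone genes were taken as the protein-coding genes whose symbols begin with Hist1h, Hist2h, Hist3h or Hist4h in the GENCODE M21 annotation of the mm10 mouse genome. They were 67 of the 55487 genes in the deposited count tables. Of these 67, 6 encode the linker histone H1, and 18, 18, 12 and 13 encode the core histones H2A, H2B, H3 and H4. The Hist1 cluster on chromosome 13 holds 54 of them, between positions 21715763 and 23934851, and 10 lie in the Hist2 cluster on chromosome 3. Another 2 lie in Hist3 on chromosome 11 and 1, Hist4h4, on chromosome 6.

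The libraries were bulk Smart-seq2 RNA-seq of sorted mouse haematopoietic stem cells (HSCs). Of the 8 libraries, 4 were labelled NTC (non-target control) and 4 miR652-KD. The labels do not give the strain, the age of the mice, the way miR-652 was knocked down, the sorting markers or the number of cells, nor whether each replicate is another animal. The p-values rest on the spread among the 8 libraries, part of which may be technical.

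Core histones form the protein spool that DNA is wound around, and H1 binds the linker DNA between spools. Most mRNAs of these genes are made during S phase and end in a conserved stem-loop in place of a poly(A) tail. The stem-loop binding protein SLBP and the U7 small nuclear ribonucleoprotein guide the cleavage just downstream of the stem-loop. Smart-seq2 starts reverse transcription from oligo-dT, so an mRNA without a poly(A) tail is a poor template. Some histone genes are also known to give polyadenylated mRNAs, in part through signals further downstream, in cells that differentiate or do not divide.

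The stem-loops of 8 histone genes are shown because their form varies both between and within histone classes. The length of annotated mRNA beyond them is also used to group the members. Each is written 5′ to 3′ on the mRNA strand with 5 bases on either side, and the capitals mark the stem-loop.
Hist1h1c: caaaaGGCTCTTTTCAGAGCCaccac
Hist1h1e: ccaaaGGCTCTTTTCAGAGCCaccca
Hist1h2ae: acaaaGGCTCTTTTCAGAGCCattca
Hist2h2ac: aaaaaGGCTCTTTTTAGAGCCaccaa
Hist1h3e: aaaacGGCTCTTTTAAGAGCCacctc
Hist1h3g: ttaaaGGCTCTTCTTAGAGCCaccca
Hist1h4d: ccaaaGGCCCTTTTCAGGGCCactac
Hist1h4i: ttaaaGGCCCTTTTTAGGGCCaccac
In mm10 these lie at chr13:23739507-23739532 (plus strand) for Hist1h1c, chr13:23621777-23621802 (minus) for Hist1h1e and chr13:23570663-23570688 (minus) for Hist1h2ae. Those of Hist2h2ac, Hist1h3e and Hist1h4d lie at chr3:96220413-96220438 (minus), chr13:23561898-23561923 (minus) and chr13:23581945-23581970 (plus). Those of Hist1h3g and Hist1h4i are at chr13:23535884-23535909 (plus) and chr13:22040961-22040986 (minus). They lie in the annotated 3′ untranslated region (UTR) of the transcript.

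The histone stem-loop consensus was searched for on both strands in the first 200 bases after the stop codon of every annotated coding transcript. It was found in 46 of the 67 members, 21 to 58 bases after the stop codon (median 31), and on the antisense strand in 0. Allowing 1 mismatch gave the same 46. Among 18062 other protein-coding genes with at least 200 bases of 3′ UTR it was found in 5, or 0.0277%. These were Btbd10, Ppm1b, Tcl1b1, the histone variant gene H2afx and H2bfm, which also has a histone symbol. The form shown for Hist1h1c was shared by 26 members of the H1, H2A, H2B and H3 classes. The form shown for Hist1h4d was found in 7 members, all of them H4 genes. In the other 21 members no stem-loop was found. For 17 of these the annotated transcript ended at most 48 bases after the stop codon. Sequence beyond annotated ends, or more than 200 bases after the stop codon, was not searched.

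The ends of 4 members are shown because they carry a poly(A) signal, the hexamer that directs cleavage and tailing of ordinary mRNAs. Capitals mark the signal.
Hist1h1c: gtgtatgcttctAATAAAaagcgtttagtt
Hist1h2ae: cccagcttctccAATAAAtgggtcaatttt
Hist1h4i: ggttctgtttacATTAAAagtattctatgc
Hist2h2be: gttattattattAATAAAgttaccgattag
They lie at chr13:23740330-23740359 (plus), chr13:23570527-23570556 (minus), chr13:22040639-22040668 (minus) and chr3:96223705-96223734 (plus). AATAAA or ATTAAA was found within the last 40 bases of an annotated transcript in 17 members, 33.3% of the 51 with a 3′ UTR at least that long. Among other protein-coding genes the share was 79.2%, and on the opposite strand of the same windows it was 5.88% for the members and 14.3% for the others. Such a match describes the annotated sequence and was not tested as a site of cleavage.

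Most histone genes were read, but few were read well. At least 1 count was found for 55 of the 67 members over the 8 libraries, and for 15 of them in every library. All protein-coding genes had a count in any library in 66.2% of 21639 cases and in every library in 48.5%, against 82.1% and 22.4% of the histone genes. A mean of at least 1 CPM, in counts per M (1000000) gene counts, was reached by 20 members. The members read in a library numbered 37, 30, 34 and 28 in NTC 1 to 4 and 36, 37, 49 and 35 in miR652-KD 1 to 4. The highest number was in miR652-KD 3, and after thinning every library to the smallest total it was 47 there and 28 to 37 elsewhere.

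The 12 members with no count included 3 known as testis types, Hist1h1t, Hist1h2aa and Hist1h2ba. The others were Hist2h2aa1, Hist2h2aa2, Hist2h2ab, Hist1h2bl, Hist2h2bb, Hist2h3b, Hist2h3c1, Hist1h4f and Hist1h4j. A count of 0 over all 8 libraries allows a level of up to 0.0233 CPM (3 counts, for counting error only). Among these genes, 5 of the Hist2 cluster (Hist2h2aa1, Hist2h2aa2, Hist2h2bb, Hist2h3b and Hist2h3c1) had no stretch of 100 bases that occurs in no other annotated gene. Their exons also overlapped those of other genes along 100% of their length, so a read from them could have been discarded or assigned elsewhere, and their 0 says nothing of expression. In Hist1h1t 100% of such stretches were its own, and in Hist1h4f and Hist1h4j 81.9% and 81.0%.

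Near-identical copies limit the rest too. At a length of 100 bases, 39 members had at least 50% of their stretches to themselves, and these held 94.8% of all histone counts. The 28 members below that share held 5.24%, and 21 of them were read. The H2A class was most affected, with a median of 30.1% own sequence against 99.6% in H1. Of the 18 H2A genes, 17 also overlap a predicted microRNA gene of the annotation. In the 13 that overlap no other kind of gene, the overlap covers 19.6% to 35.9% of their exons. How many H2A reads were lost to these overlaps was not tested. Ambiguous reads were 8.94% to 12.3% of the summed count tables. The summary line for reads aligned to several places was 0 in every library, so the counts do not show how such reads were handled.

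Reads were concentrated in a few genes. Of the 33565 histone counts in all libraries, 66.5% came from the 5 most counted genes and 87.3% from the 10 most counted. Per kilobase of annotated exon, the mean over the 8 libraries was highest for Hist1h2bc, an H2B gene, at 47.2 ± 17.3 CPM per kb (SD, n = 8). It was followed by the H4 genes Hist1h4d at 38.8 ± 12.1 and Hist1h4i at 32.6 ± 12.7, then by Hist1h2ae at 26.9 ± 15.9 CPM per kb (SD, n = 8). Next came the H1 genes Hist1h1b at 17.1 ± 9.36, Hist1h1c at 14.3 ± 5.78 and Hist1h1e at 12.6 ± 7.30, and then Hist1h2ao at 9.80 ± 4.96 CPM per kb (SD, n = 8). Each neighbour in this order differed from the next by less than the larger of their SDs. By that measure, which does not pair the libraries, the order of neighbours is not settled. The lowest library of Hist1h2bc, at 20.5 CPM per kb, lay above the highest of Hist1h2ao, at 19.8. Hist1h1b ends at its stop codon in the annotation, so its level per kb is set by its coding part and 5′ end alone.

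Median levels differed by the annotated 3′ end, with wide overlap between genes. In 26 members the longest transcript runs at least 50 bases past the stem-loop. Of these 26, 23 were read and 14 passed the count filter of the test below, and they held 63.3% of histone counts. Hist1h4d runs 770 bases past its stem-loop, Hist1h1c 840 and Hist1h1e 1153. The median level of all 26 was 0.815 CPM per kb. A further 5 H2B genes (Hist1h2bc, Hist1h2bp, Hist1h2bq, Hist1h2br and Hist2h2be) have an annotated 3′ UTR of 100 bases or more in which the search found no stem-loop. Hist1h2bp also has another annotated transcript that holds the stem-loop and ends 38 bases past it. All 5 were read, at a median of 0.381 CPM per kb, and held 25.4% of counts. Hist1h2bc alone accounts for most of that share. It is annotated with a spliced transcript and a 3′ UTR of 742 bases.

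Members annotated to end at the stem-loop, fewer than 50 bases past it, numbered 19. Of these, 16 were read but only 3 passed the filter, Hist1h2ao, Hist1h2ap and Hist1h2ab, and they held 5.29% of counts at a median of 0.488 CPM per kb. The remaining 17 have at most 48 bases of annotated 3′ UTR and no stem-loop in it. Of them 11 were read, at a median of 0.0883 CPM per kb, and Hist1h1b and Hist1h1a passed the filter. Uniqueness and length differed along the same lines. Median own sequence at 100 bases was 82.1%, 68.9%, 36.4% and 35.7%, and median exon length 1079, 2015, 480 and 393 bases, in the order given. Their part in these levels was not tested. The limit of 50 bases was set after the counts were known. The members nearest above it were Hist1h3b (51 bases, 0.397 CPM per kb) and Hist2h2ac (57 bases, 2.75), and the nearest below were Hist1h3g (47 bases, 0.742) and Hist1h4h (46 bases, 1.32). Genes on either side of the limit thus had levels in the same range.

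**Figure D1:**
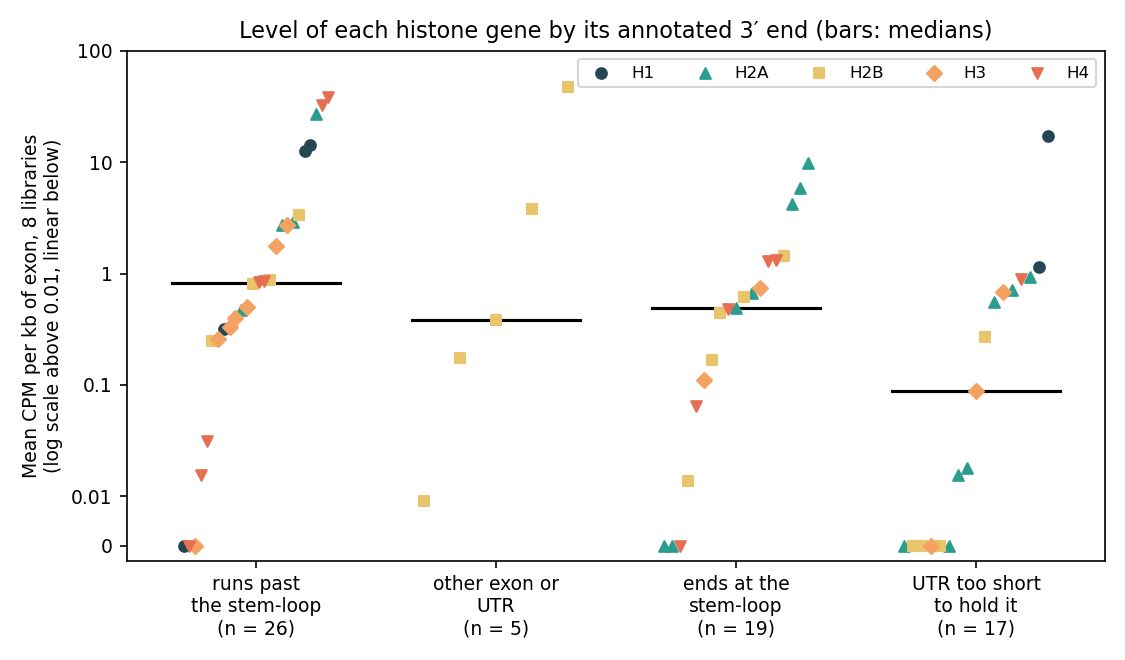
Mean level of each of the 67 histone genes over the 8 libraries (y axis, CPM per kb of exon, log scale above 0.01 and linear below) by type of annotated 3′ end (x axis). Points are genes, coloured by class, and bars are medians, which were 0.815, 0.381, 0.488 and 0.0883 CPM per kb from left to right; every type spans from near 0 to at least 9.80 CPM per kb.

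The 17 members with a poly(A) signal at an annotated end had a median of 0.799 CPM per kb, and 14 were read. The 50 without one had a median of 0.483 and 41 were read. For scale, 12 small RNAs that are made without a poly(A) tail, such as Rn7sk and Rmrp, summed to 1.09 to 3.75 CPM per library, and 4 of them, Rmrp, Rnu7, Rnu11 and Rprl3, had no count. Rn7sk, the RNA of the 7SK particle, was at 1.60 ± 0.333 CPM in NTC against 1.25 ± 0.292 CPM in miR652-KD (SD, n = 4). The histone genes together were at 219 ± 40.7 CPM in NTC against 288 ± 91.6 CPM in miR652-KD (SD, n = 4).

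That total did not separate the groups. It was 267, 171, 234 and 206 CPM in NTC 1 to 4 against 211, 241, 418 and 283 CPM in miR652-KD 1 to 4. The groups overlapped, and the highest total was that of miR652-KD 3. The ratio of the group means was 1.32, and 1.12 without miR652-KD 3. In bulk samples, more cells making a transcript and more transcript per cell cannot be told apart.

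By class, the summed H1 genes were at 61.7, 47.9, 58.2 and 17.97 CPM in NTC 1 to 4 against at 58.7, 57.9, 116 and 81.0 CPM in miR652-KD 1 to 4. NTC 4 was low and miR652-KD 3 high, and the groups overlapped. H2A genes summed to 40.4, 34.6, 26.6 and 14.01 CPM in NTC against 33.2, 37.8, 81.0 and 42.6 CPM in miR652-KD. The ratio of means was 1.69 for H1 and 1.68 for H2A, and 1.42 and 1.31 without miR652-KD 3. H2B genes summed to 83.5, 34.7, 83.5 and 94.0 CPM in NTC against 49.9, 75.3, 91.3 and 73.4 CPM in miR652-KD, a ratio of 0.980. For H4 genes the sums were 71.6, 51.2, 59.6 and 73.5 CPM in NTC against 64.7, 64.5, 111 and 84.9 CPM in miR652-KD, a ratio of 1.27. H3 genes were the least read class at 9.42, 2.57, 5.79 and 6.22 CPM in NTC against 4.84, 5.11, 18.3 and 0.750 CPM in miR652-KD. Their ratio of 1.21 became 0.594 without miR652-KD 3. In every class the groups overlapped. H1 genes made up 23.1%, 28.0%, 24.9% and 8.74% of histone CPM in NTC 1 to 4 against 24.1% to 28.7% in miR652-KD, so only NTC 4 lay outside 23.1% to 28.7%.

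**Figure D2:**
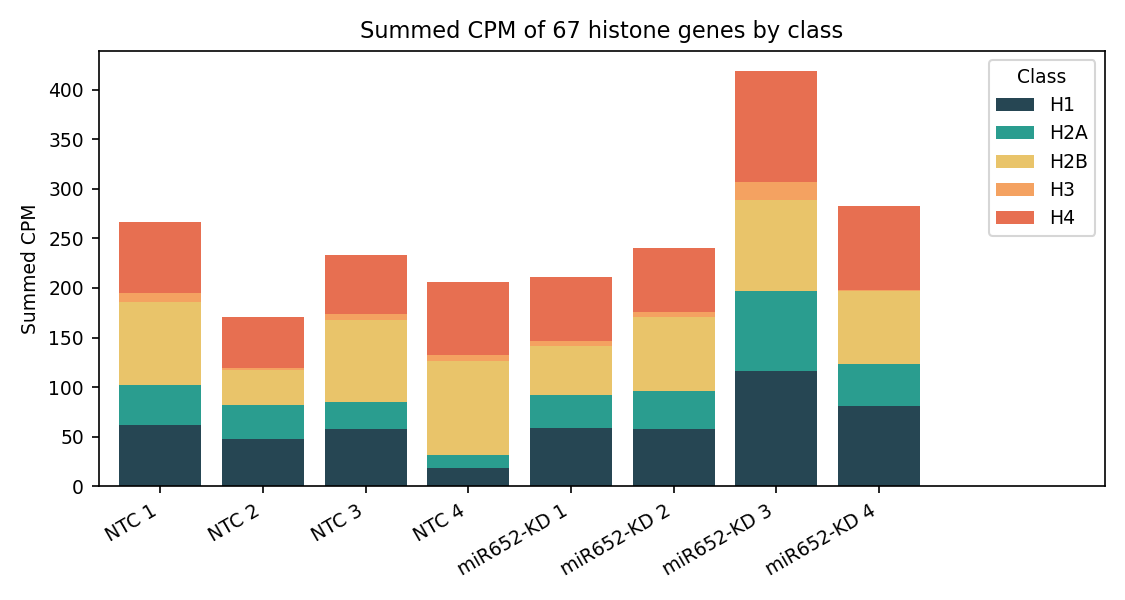
Summed CPM of the 67 histone genes in each library (y axis, linear from 0), stacked by class. Totals run from 171 to 267 CPM in NTC against from 211 to 418 CPM in miR652-KD, with the highest bar in miR652-KD 3 and the smallest H1 segment, 17.97 CPM, in NTC 4.

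Of the members, 21 passed the low-count filter and were tested for a difference between miR652-KD and NTC. They were 5 H1, 6 H2A, 4 H2B, 2 H3 and 4 H4 genes and held 96.2% of the histone counts. None of the 21 passed the threshold (edgeR quasi-likelihood test, adjusted p from 0.782 to 0.999), where 0.0418% of all 14360 tested genes did. DESeq2 also called 0 of them and called 0.426% of all genes, and limma-voom called 0 of them and 1 of all genes. At an unadjusted edgeR p below 0.05 there were 4, all higher in miR652-KD (Hist1h1a, Hist1h1b, Hist1h2ae and Hist1h4d), against 2.90% of all genes, and none was lower, against 3.09%. In either direction 5.99% of all genes reached that level. With DESeq2 or limma-voom 5 members were at that level, against 974 (DESeq2) and 1040 (limma-voom) of all 14360 genes. The log2 difference was above 0 for 15 of the 21, with a median of 0.60, where 49.5% of all tested genes were above 0 and their median was near 0. Without miR652-KD 3 the median was 0.10, and 13 of 22 tested members were above 0. In that fit 0 members had an unadjusted edgeR p below 0.05, against 847 of all 14944 genes.

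**Figure D3:**
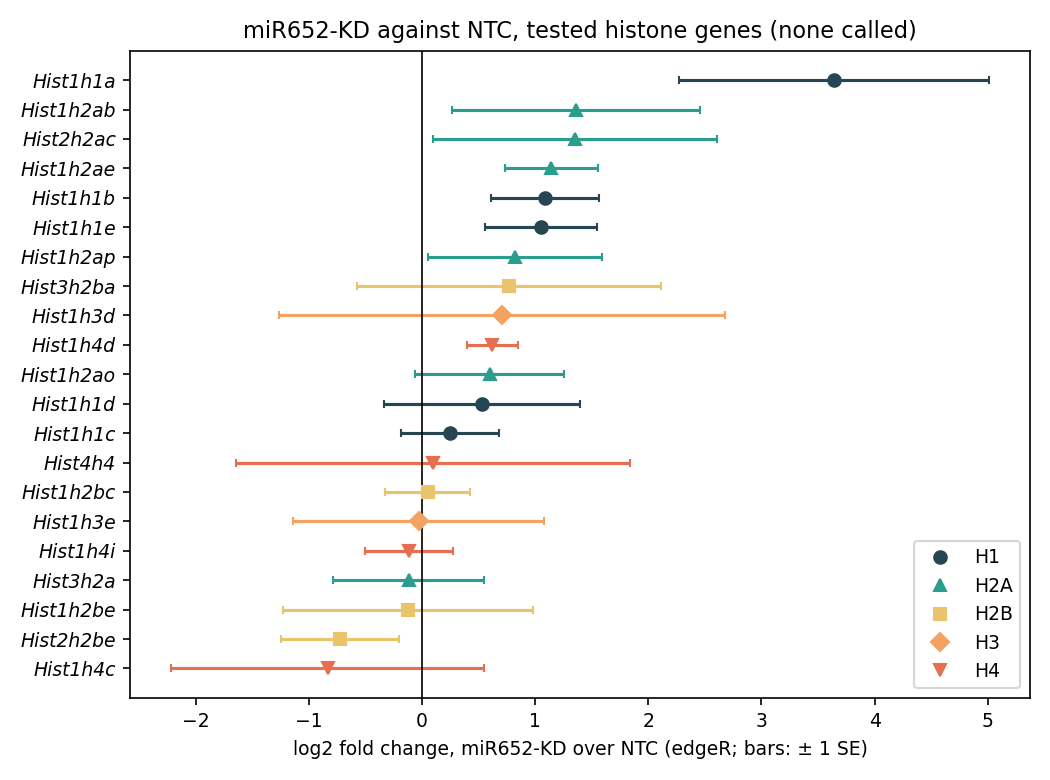
Log2 difference of miR652-KD over NTC (x axis) for the 21 tested histone genes (y axis), from edgeR, with bars of 1 SE and colours for class. Values run from -0.84 (Hist1h4c) to 3.64 (Hist1h1a), 15 lie above 0, and no gene passed the threshold.

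All 5 tested H1 genes had a log2 difference above 0, and none of them passed the threshold. Hist1h1a (ENSMUSG00000049539.3, chromosome 13, 23763666 to 23764406, plus strand) was close to unread in NTC. It had 3, 4, 0 and 0 counts in NTC 1 to 4 and 19, 22, 43 and 27 counts in miR652-KD 1 to 4, or 0.202, 0.285, 0 and 0 CPM against 1.29, 1.34, 2.16 and 1.56 CPM. The groups did not overlap, which held upward for 2 of the 21 members and for 2.35% of all tested genes, and downward for 0 members and 2.15% of all genes. The log2 difference was 3.64 (SE 1.37, adjusted p by edgeR = 0.803), a size that rests on the 7 counts of the NTC libraries. It was 3.23 to 4.46 with any 1 library left out, and highest without NTC 2. Hist1h1b (ENSMUSG00000058773.2, chromosome 13, 21779883 to 21780625, minus strand) was at 15.9, 6.63, 5.55 and 4.71 CPM in NTC against 19.6, 9.42, 22.5 and 17.5 CPM in miR652-KD. NTC 1 lay above miR652-KD 2, and the difference was 1.08 (SE 0.48, adjusted p by edgeR = 0.833).

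Hist1h1e and Hist1h1c were the most counted H1 genes. Hist1h1e (ENSMUSG00000051627.3, chromosome 13, 23620629 to 23622558, minus strand) was at 21.8, 19.2, 18.1 and 4.03 CPM in NTC against 22.4, 20.5, 51.8 and 36.0 CPM in miR652-KD. Its low value in NTC 4 and its high values in miR652-KD 3 and 4 set the log2 difference of 1.05 (SE 0.50, adjusted p by edgeR = 0.851), since the other libraries lay between 18.1 and 22.4 CPM. Hist1h1c (ENSMUSG00000036181.2, chromosome 13, 23738808 to 23740367, plus strand), whose stem-loop and downstream poly(A) signal are printed above, was at 22.7, 18.4, 32.9 and 7.52 CPM in NTC against 14.5, 23.3, 34.9 and 23.9 CPM in miR652-KD. The groups overlapped, with a difference of 0.25 (SE 0.43). Hist1h1d was read at 1.08 to 3.35 CPM in NTC against 0.954 to 4.98 CPM in miR652-KD, a difference of 0.53 (SE 0.87). Its annotated transcript is 7425 bases long and runs 4884 bases past the stem-loop, so its level per kb was the lowest of the tested H1 genes at 0.321.

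Among H2A genes, Hist1h2ae (ENSMUSG00000069272.6, chromosome 13, 23570517 to 23571220, minus strand) was the most counted and was the other member without overlap. Its values were 13.3, 15.6, 12.5 and 5.81 CPM in NTC against 17.4, 19.3, 43.3 and 24.5 CPM in miR652-KD. Each miR652-KD library lay above each NTC library, and miR652-KD 3 was the highest. Its log2 difference was 1.14 (SE 0.41), with the smallest adjusted p of the members by edgeR, 0.782, at an unadjusted 0.0186. Under the alternatives the adjusted p ranged from 0.456 (DESeq2) to 0.919. A predicted microRNA gene overlaps 19.6% of its exon.

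Hist1h2ao, Hist1h2ap and Hist1h2ab are annotated to end 31, 3 and 11 bases past the stem-loop, and their sequences are mostly shared with other H2A genes (7.35%, 7.83% and 47.6% own at 100 bases), so their counts are uncertain. Hist1h2ao was at 6.66, 3.28, 2.62 and 2.46 CPM in NTC against 4.63, 3.53, 9.50 and 4.96 CPM in miR652-KD. Hist1h2ap was at 3.77, 1.43, 1.79 and 1.16 CPM in NTC against 2.59, 3.34, 4.22 and 4.16 CPM in miR652-KD. For Hist1h2ab the values were 0.942, 2.92, 0.537 and 0.0683 CPM against 2.59, 3.40, 3.92 and 1.67 CPM. In each of these genes 1 NTC library reached into the miR652-KD range, and the log2 differences were 0.60 (SE 0.66), 0.82 (SE 0.77) and 1.36 (SE 1.10). That of Hist1h2ab was 0.97 to 2.50 with any 1 library left out, and highest without NTC 2.

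Hist2h2ac, on chromosome 3, was at 1.88, 0.999, 0.358 and 0 CPM in NTC against 1.70, 1.16, 1.76 and 3.58 CPM in miR652-KD, a log2 difference of 1.35 (SE 1.25). That difference was 0.93 to 2.15 with any 1 library left out, and highest without NTC 1. Hist3h2a, on chromosome 11, was the only tested H2A gene below 0. It was at 7.26, 8.92, 6.20 and 3.48 CPM in NTC against 3.20, 5.47, 12.97 and 2.25 CPM in miR652-KD, a difference of -0.12 (SE 0.67) that was -0.82 without miR652-KD 3. In Hist3h2a the miR652-KD libraries spread on both sides of the NTC range.

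Of the H2B genes, Hist1h2bc (ENSMUSG00000018102.5, chromosome 13, 23684199 to 23692908, plus strand) gave the most counts of all members. It was at 51.5, 23.7, 62.0 and 77.5 CPM in NTC against 28.5, 67.5, 74.1 and 51.6 CPM in miR652-KD. Both groups ran over nearly the same range, and the log2 difference was 0.05 (SE 0.38). Hist2h2be (ENSMUSG00000068854.7, chromosome 3, 96221119 to 96223738, plus strand), which has a poly(A) signal and no stem-loop in the annotated transcript, pointed the other way. It was at 21.5, 7.78, 11.9 and 9.16 CPM in NTC against 5.79, 4.92, 5.08 and 14.3 CPM in miR652-KD. All miR652-KD libraries but miR652-KD 4 lay below all NTC libraries, and the difference was -0.73 (SE 0.52, adjusted p by edgeR = 0.965).

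The remaining tested H2B genes varied from library to library. Hist1h2be was at 3.30, 0.214, 5.79 and 5.60 CPM in NTC against 9.13, 0.730, 1.81 and 1.85 CPM in miR652-KD, and its exons overlap those of Hist1h1e. Hist3h2ba was at 3.90, 0, 1.19 and 1.02 CPM in NTC against 4.09, 0.790, 4.83 and 0.577 CPM in miR652-KD. Their log2 differences were -0.13 (SE 1.10) and 0.77 (SE 1.34), with overlap in both. With any 1 library left out, that of Hist1h2be was -1.34 (without miR652-KD 1) to 0.22. That of Hist3h2ba was 0.28 to 1.78, and highest without NTC 1.

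Only 2 H3 genes were tested, and both varied widely within each group. Hist1h3d was at 6.73, 0.0713, 0 and 0 CPM in NTC against 2.59, 1.82, 6.43 and 0 CPM in miR652-KD, a log2 difference of 0.71 (SE 1.97) that was 6.46 without NTC 1 and -0.16 without miR652-KD 3. It had 0 or 1 count in 4 libraries. Hist1h3e was at 1.14, 1.93, 5.37 and 0.820 CPM in NTC against 1.23, 0.973, 6.58 and 0.346 CPM in miR652-KD, a difference of -0.03 (SE 1.11) that was 0.80 without NTC 3 and -1.44 without miR652-KD 3. In Hist1h3e the highest library of each group was its replicate 3.

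Among H4 genes, Hist1h4d (ENSMUSG00000061482.7, chromosome 13, 23581598 to 23582735, plus strand) had the smallest error of all members. It was at 42.5, 33.7, 36.6 and 26.6 CPM in NTC against 41.8, 44.1, 70.0 and 57.8 CPM in miR652-KD. The groups overlapped only where NTC 1 lay just above miR652-KD 1. Its log2 difference was 0.62 (SE 0.23, adjusted p by edgeR = 0.799), and 0.47 to 0.72 with any 1 library left out. Hist1h4i (ENSMUSG00000060639.5, chromosome 13, 22040636 to 22041362, minus strand) was at 26.4, 14.9, 17.8 and 39.8 CPM in NTC against 21.1, 11.98, 31.7 and 26.1 CPM in miR652-KD, a difference of -0.12 (SE 0.39). NTC 4, low in the H1 genes, was the highest library for Hist1h4i and for Hist1h2bc.

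Hist1h4c and Hist4h4 were read unevenly. Hist1h4c was at 1.21, 1.21, 0.0597 and 1.02 CPM in NTC against 0.273, 1.09, 0 and 0.577 CPM in miR652-KD, a log2 difference of -0.84 (SE 1.38). That difference was -1.59 (without miR652-KD 2) to -0.42 with any 1 library left out. Hist4h4, the single histone gene on chromosome 6 (136801553 to 136804415), was at 0.740, 0.0713, 4.00 and 4.58 CPM in NTC against 0, 6.14, 3.92 and 0 CPM in miR652-KD, a difference of 0.09 (SE 1.74) that was -0.85 without miR652-KD 2.

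**Figure D4:**
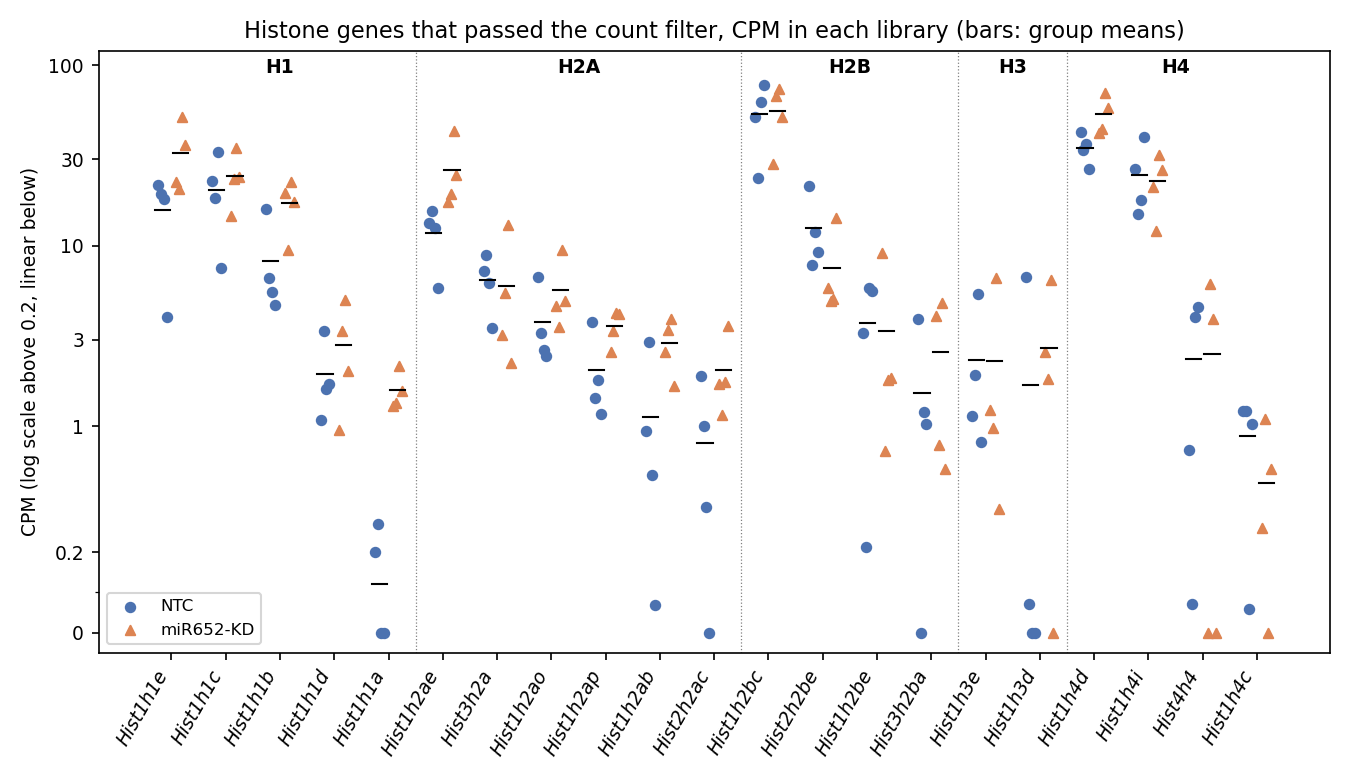
CPM of the 21 tested histone genes (x axis, by class) in each library (y axis, log scale above 0.2 and linear below), with circles for NTC, triangles for miR652-KD and bars for group means. Hist1h1a and Hist1h2ae are the genes whose groups do not overlap, and Hist1h3d and Hist4h4 spread from 0 to over 6 CPM within miR652-KD.

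The other 46 members did not pass the filter, and 34 of them had 1 to 150 counts in all. The most counted was Hist1h2ac, with 80, 3, 21 and 0 counts in NTC and 0, 8, 37 and 1 in miR652-KD, and no direction is visible in these. Hist1h2bj had 0 counts in each NTC library and 23, 0, 34 and 36 in miR652-KD 1 to 4. Against a floor of 3 counts over the NTC group, for counting error only, that is 27.3-fold, but 1 miR652-KD library was at 0 as well. The floor leaves out the spread between libraries, so that value is no lower limit, and the gene was not tested. Hist1h4h had 7, 2, 0 and 6 counts in NTC and 13, 14, 37 and 6 in miR652-KD. In Hist1h2ac and Hist1h2bj some libraries held most of the counts and others had none, while Hist1h4h had none in NTC 3 only.

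Genes for making and processing histone mRNA gave no call. Of 24 tested genes of this list, 14 were above 0 (49.5% over all tested genes) with a median log2 difference of 0.11, and none passed (edgeR). Slbp, which encodes the stem-loop binding protein, was at 122, 151, 141 and 118 CPM in NTC against 150, 113, 134 and 131 CPM in miR652-KD, a difference of -0.01 (SE 0.14). The protein's mRNA was thus read in every library at a similar level. Npat and Casp8ap2, which act in histone gene transcription, differed by -0.16 (SE 0.25) and 0.11 (SE 0.19). Lsm10 and Lsm11, subunits of the U7 particle, differed by -0.08 (SE 0.16) and 0.25 (SE 0.60). Zfp473, another U7 partner, was listed at 0 counts in 4 libraries and was not tested. Eri1, an exonuclease that trims the histone mRNA end, was at 107 ± 6.74 CPM in NTC against 82.5 ± 5.47 CPM in miR652-KD (SD, n = 4) without overlap, a difference of -0.37 (SE 0.13, adjusted p by edgeR = 0.779).

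Histone chaperones and assembly factors were near balance. Of 26 tested, 16 were above 0 (49.5% over all tested genes), the median was 0.07 and none passed (edgeR). Daxx, an H3.3 chaperone, was at 57.7 ± 19.1 CPM in NTC against 32.6 ± 0.818 CPM in miR652-KD (SD, n = 4), which is -0.82 on the log2 scale (SE 0.24, adjusted p by edgeR = 0.764). Tonsl, which binds newly made H4, differed by 1.61 (SE 0.60, adjusted p by edgeR = 0.801) with overlap. Chaf1b and Asf1b, which act in chromatin assembly and histone supply during replication, differed by -0.33 (SE 0.13) and 0.73 (SE 0.47).

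Histone variants outside these clusters, most of them with ordinary polyadenylated mRNAs, were read far more. The 11 variant genes summed to 4066 ± 382 CPM in NTC against 4200 ± 402 CPM in miR652-KD (SD, n = 4). Of these, 9 of 11 were above 0 (49.5% over all tested genes), with a median of 0.19 and none called (edgeR). H2afx, the DNA damage variant whose mRNA also holds the stem-loop, was at 131, 103, 150 and 108 CPM in NTC against 171, 198, 237 and 173 CPM in miR652-KD. All miR652-KD libraries lay above all NTC libraries, with a log2 difference of 0.67 (SE 0.15, adjusted p by edgeR = 0.522). H2afz, H3f3a and H3f3b, which give H2A.Z and H3.3, differed by 0.09 (SE 0.13), 0.22 (SE 0.10) and -0.09 (SE 0.11).

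Cell cycle genes are given beside the histone values because histone mRNA is made in S phase. Over all tested genes, 49.5% had a log2 difference above 0 and 2.90% were higher at an unadjusted edgeR p below 0.05. Of 37 S phase genes tested, 29 were above 0 with a median log2 difference of 0.25, 7 had an unadjusted p below 0.05, all higher, and none passed (edgeR). Their sums were 2886, 3947, 3293 and 2479 CPM in NTC against 4322, 3810, 3308 and 3603 CPM in miR652-KD. Of 20 mitosis genes, 19 were above 0 with a median of 0.66, 11 had an unadjusted p below 0.05, all higher, and none passed (edgeR). They summed to 743, 719, 1111 and 904 CPM in NTC against 915, 1218, 2000 and 1186 CPM in miR652-KD. The library with the highest mitosis sum, miR652-KD 3, also had the highest histone sum, while the highest S phase sum was in miR652-KD 1. Mki67, a marker of cycling cells, was at 96.9, 85.2, 75.2 and 52.0 CPM in NTC against 99.8, 103, 202 and 132 CPM in miR652-KD, a difference of 0.80 (SE 0.26, adjusted p by edgeR = 0.779). Anln, a scaffold of cytokinesis, averaged 9.198 ± 2.53 CPM in NTC against 23.1 ± 4.89 CPM in miR652-KD (SD, n = 4), and Gins3, a subunit of the replication helicase, 12.8 ± 2.46 against 24.5 ± 3.22 CPM. Both were without overlap and did not pass, at 1.33 (SE 0.33, adjusted p by edgeR = 0.598) and 0.94 (SE 0.28, adjusted p by edgeR = 0.764). Pcna, the replication clamp, differed by 0.34 (SE 0.15, adjusted p by edgeR = 0.833). The part of the cell cycle in the histone values was not tested.

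**Figure D5:**
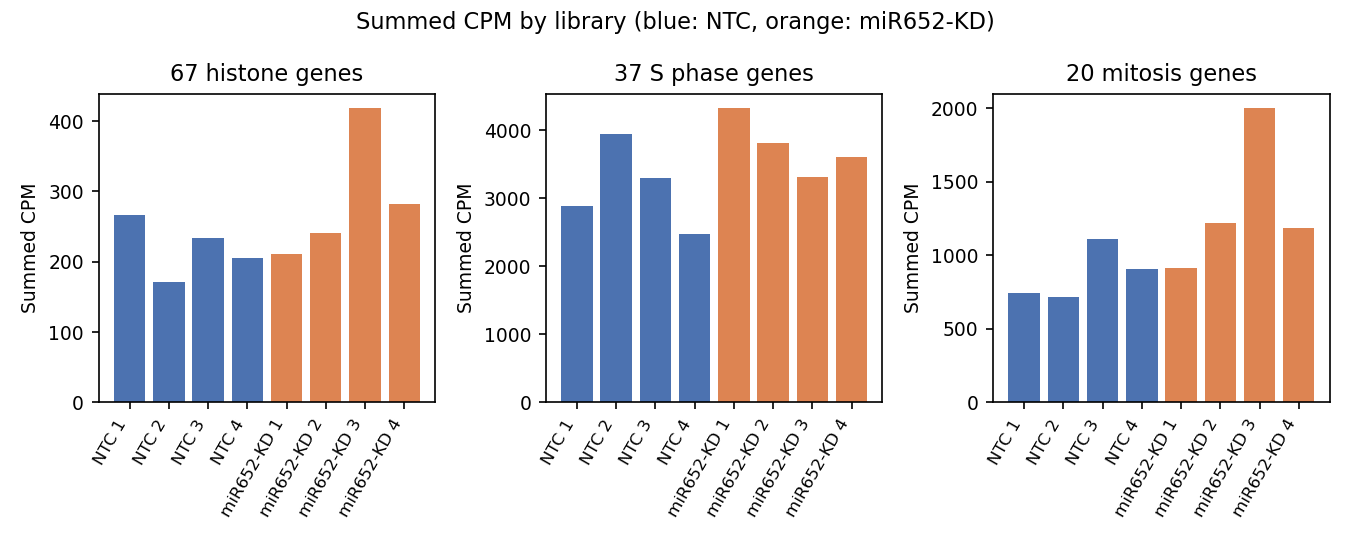
Summed CPM in each library (y axes, linear from 0, different scales) of the 67 histone, 37 S phase and 20 mitosis genes, with NTC in blue and miR652-KD in orange. MiR652-KD 3 has the highest histone sum (418 CPM) and the highest mitosis sum (2000 CPM), and miR652-KD 1 the highest S phase sum (4322 CPM).

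Gene counts totalled 14.02 to 16.76 M (M for the SI prefix mega) per NTC library and 14.68 to 19.89 M per miR652-KD library. All 14 genes of the HSC list, such as Kit, Procr, Mecom, Cd34, Flt3 and Cd48, were read. Their sums were 2640 to 3066 CPM in NTC against 2354 to 2632 CPM in miR652-KD, without overlap. Of the 14, 4 had a log2 difference above 0 (49.5% over all tested genes) and 10 below, and none passed (edgeR). The list mixes genes of stem cells and of progenitors, so its sum does not measure HSC identity. Erythroid markers, 11 of 12 tested, summed to 4191 to 7904 CPM in NTC against 1798 to 4552 CPM in miR652-KD. Of the 11, 2 were above 0 and 9 below, with a median log2 difference of -2.41 and 0 called (edgeR). Granulocyte and monocyte markers, 11 of 12 tested, ranged more widely in NTC, from 1411 to 17697 CPM with the highest value in NTC 4, against 1448 to 6522 CPM in miR652-KD. Lymphoid markers summed to 207 to 536 CPM in NTC against 175 to 399 CPM in miR652-KD, with Cd3e, Cd3g and Trbc2 at 0 in every library. Megakaryocyte, macrophage and dendritic, mast cell and basophil, and endothelial and stromal lists summed to at most 509, 96.8, 35.8 and 160 CPM in any library. Without NTC 3 and 4, which had the highest granulocyte and monocyte sums, 20 of 31 tested histone genes were above 0. Their median was 0.43, against 0.0037 over all 15972 genes tested in that fit. No histone gene was called, but 0 of all genes were called either. At an unadjusted edgeR p below 0.05 there were 0 histone genes, against 884 of all genes. The part of these markers in the histone values was not tested.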

How the data were processed

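The authors deposited whole-number read counts per gene for each of the 8 libraries, not normalized. HISAT2 2.1.0, HTSeq 0.11.2, DESeq2 and mm10 are named in the submitters' processing notes; annotation, counting mode, strand setting and read length are not given in the sources used. The 5 summary lines of each table were left out, among them reads in no gene (9.69% to 16.9%). Gene identifiers were matched to GENCODE M21 (55394 of 55487).

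CPM are counts per 1000000 gene counts. Groups were compared in edgeR 4.0.16 under R 4.3.3 (TMM, filterByExpr with minimum count 10 and total 15) by robust quasi-likelihood fits and Benjamini-Hochberg adjustment over all 14360 genes, called below 0.05, and the fit was tested on simulated data. SE is the log2 difference divided by the square root of F. Alternatives were other scalings, DESeq2 1.42.0, limma-voom (limma 3.58.1), other filters, the replicate block, leaving out libraries and thinning.

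Sequences, 3′ ends and shared stretches came from M21 transcripts, so own sequence was judged among annotated transcripts, not the genome as planned. Smart-seq2 has no molecular identifiers, so floors cover counting error only. The members and gene lists were chosen with earlier results of these data known. Every tested member is described, with the 3 most counted untested ones, named regulators and some genes of smallest p per list.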

Additional observations from a re-analysis of the deposited data

Results flagged for a closer look

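In 7 of the 86 groups of 4 libraries checked, 1 library stood apart by Dixon's criterion, where chance gives about 1 in 20. Hist1h2be was at 9.13 CPM in miR652-KD 1, and the next library of its group was at 1.85. Hist2h2be was at 14.3 CPM in miR652-KD 4 against 5.79 in the next. Hist1h3e was at 6.58 CPM in miR652-KD 3 against 1.23, and Hist1h3d at 6.73 CPM in NTC 1 against 0.0713. Hist1h4c was low in NTC 3 at 0.0597 CPM, with the next library at 1.02. Zfp473, which encodes a U7 partner protein, was at 4.10 CPM in miR652-KD 4 against 0.426. The summed genes that end at the stem-loop reached 28.3 CPM in miR652-KD 3 against 14.7 in the next library, and their ratio of group means fell from 1.89 to 1.49 without it.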

How the results depend on the processing

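No histone gene passed the threshold under any of the 17 alternatives to the edgeR test. Over all genes, the 6 calls became 61 with DESeq2, 1 with limma-voom and 0 without NTC 3 and 4, and 0 to 0 with any 1 library left out. With the replicate number as a block there were 0; same-numbered libraries did not deviate together (correlations -0.033 to -0.010), so the numbers were not taken as pairs. The median log2 difference of the tested histone genes was 0.26 to 0.63 under other settings and 0.10 to 1.01 with 1 library left out. Histone genes read numbered 20 at a mean of 1 CPM, against 55 at 1 count. The NTC mean was 166 CPM without Hist1h2bc. The sign turned for Hist4h4 with limma-voom (-1.43) and the replicate block (-1.94). Without NTC 3 and 4 it turned for Hist1h2be (0.99), Hist1h3e (0.56), Hist1h3d (-0.29) and Hist1h4i (0.15). With 1 library left out the ranges crossed 0 for Hist4h4 (-0.85 to 0.65), Hist3h2a (-0.82 to 0.15), Hist1h2bc (-0.19 to 0.29), Hist1h2be (-1.34 to 0.22), Hist1h3e (-1.44 to 0.80), Hist1h1c (-0.020 to 0.58), Hist1h4i (-0.31 to 0.22) and Hist1h3d (-0.16 to 6.46); the cause was not tested. Leaving out each library from the ratios of summed CPM was added after the data were seen.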

Other observations

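Histone pseudogene rows of the same clusters were all but empty. Hist1h2aj had 3, 1, 1 and 1 counts in NTC and 2, 0, 1 and 1 in miR652-KD, Hist1h2al had none, and Hist3h2bb-ps had 15 counts in NTC 4 and 0 elsewhere.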
